A study of Carassius auratus with 6 samples.

Results

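The engrailed homeobox genes of Carassius auratus, in a strain known as golden-back crucian carp, were taken as all gene rows whose product name begins with homeobox protein engrailed. Of 83088 gene rows, 8 met this rule, 3 named engrailed-1 and 5 named engrailed-2, and no row carried an engrailed symbol under another product name. The family was picked because of its known difference between golden and greenish grey skin, so that difference is described below and not tested. Only 2 of the 8 genes, LOC113044568 and LOC113105207, both engrailed-1, averaged 1 FPKM or more across the 6 libraries, FPKM being a read count put on a common scale of transcript length and sequencing depth. No sequence of these genes was used here.

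Engrailed proteins are homeodomain transcription factors that act mainly as repressors, and they are known for setting borders between neighbouring fields of cells. In the mouse limb bud, En1 marks the ventral ectoderm, where it keeps the dorsal signal Wnt7a out, and in the vertebrate brain engrailed genes mark the border of midbrain and hindbrain. In zebrafish, engrailed also labels the muscle pioneers, slow muscle cells that form in response to hedgehog signals.

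Messenger RNA of skin from female fish of a colour mutant was sequenced in 6 libraries, 3 from golden (GO) and 3 from greenish grey (GR) skin, with no drug or other treatment named in the labels. All 6 libraries came from the mutant fish, and no skin of a wild-type fish was compared. In the study's description the golden skin lies in patches along the back, while the place from which the greenish grey skin was taken is not given in the sources used here, so colour and place on the body cannot be told apart. The labels give neither the age of the fish nor whether the libraries of a group came from separate fish, so the spread between libraries may be technical in part. For its small RNA libraries the study describes collecting both skins from 3 fish. It does not say whether the messenger RNA libraries came from the same fish.

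Total counts ranged from 51493103 to 67595616 per library, and between 41685 and 44553 genes had a count in a library. The edgeR quasi-likelihood test was applied to the 26421 genes that reached the same mean FPKM. At an adjusted p under 0.05 it called 0 genes, 0% of those tested, with a lowest adjusted p of 0.283, while 1163 genes (4.4%) had an unadjusted p under 0.05 and DESeq2 called 205 genes (0.776%) at an adjusted p under 0.05. With the library number as a block, edgeR called 1 gene (0.00378%). A gene is therefore counted as called below when it differed more than 2-fold with an unadjusted p under 0.05, and 399 genes (1.51%) were called lower and 332 genes (1.26%) higher in golden than in greenish grey skin. None of these calls passes the adjustment over all genes in edgeR. The 4.4% of genes with an unadjusted p under 0.05 does not exceed the share this threshold gives when no gene differs.

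Both expressed engrailed-1 genes were lower in golden than in greenish grey skin, in every library of the one against every library of the other. LOC113044568 is annotated as engrailed-1-B-like, with the RefSeq symbol en1b, and lies on the minus strand of chromosome 26 (18685438 to 18689599, ASM336829v1). Its level was 0.171, 0.0736 and 0.180 FPKM in golden libraries 1 to 3 and 1.45, 3.55 and 2.71 FPKM in greenish grey libraries 1 to 3. The lowest greenish grey library, number 1, thus stood well above the highest golden library. In FPKM the spread was wider among the greenish grey libraries, but relative to the mean it was similar in both colours. The group means were 0.141 ± 0.0590 and 2.57 ± 1.06 FPKM (SD, n = 3 each), and their ratio was 18.2. The edgeR log2 fold change of golden minus greenish grey was -3.96 (SE 0.58).

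The golden values of this gene rested on few reads. The counts of LOC113044568 were 15, 7 and 20 in golden libraries 1 to 3, against 123, 372 and 294 in greenish grey libraries 1 to 3. The golden sum of 42 counts has a 95% Poisson interval of 30.3 to 56.8, and the greenish grey sum of 789 counts one of 735 to 846, both for counting error only. The golden level was thus known only coarsely.

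LOC113105207, annotated as engrailed-1-like, lies on the plus strand of chromosome 1 (24243347 to 24248590). Its level was 0.218, 0.159 and 0.181 FPKM in golden libraries 1 to 3 and 2.26, 3.02 and 2.89 FPKM in greenish grey libraries 1 to 3. The groups did not overlap, and here the libraries of each colour lay closer together. The means were 0.186 ± 0.0297 and 2.72 ± 0.405 FPKM (SD, n = 3 each), a ratio of 14.6, and the log2 fold change was -3.65 (SE 0.39). Counts were 32, 25 and 34 in golden and 320, 527 and 521 in greenish grey libraries, with sums of 91 (95% Poisson interval 73.3 to 112) and 1368 (1296 to 1442).

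**Figure D1:**
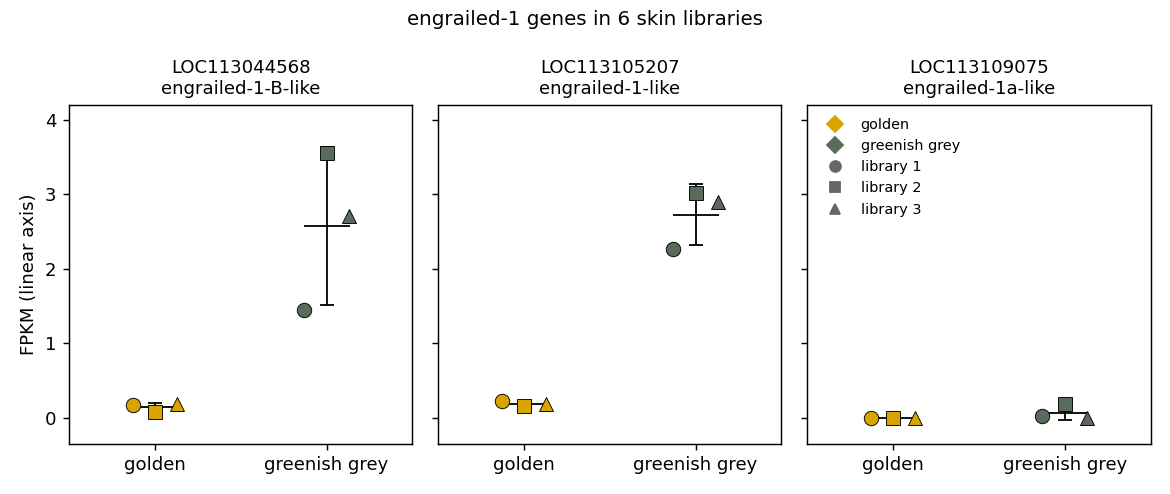
Level of the 3 engrailed-1 genes in FPKM (linear axis) in the 6 skin libraries, with the mean and SD of each colour drawn as lines and bars (n = 3). LOC113044568 and LOC113105207 lie under 0.22 FPKM in all golden and at or above 1.45 FPKM in all greenish grey libraries, whereas LOC113109075 is near 0 in both.

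Both genes were picked for this difference, so its rank among all genes tested is given as a description only. In 41 genes (0.155%), both engrailed genes among them, the log2 fold change was at or below the -3.65 of LOC113105207, the smaller engrailed difference. Of these, 25 genes (0.0946% of all tested) had no overlap between the groups. Without overlap and lower in golden skin were 1341 genes (5.08%). Since the genes were selected on this contrast, nothing is read from these shares. Both genes passed the expression minimum only through the greenish grey libraries, and their means over all 6 libraries, 1.36 FPKM for LOC113044568 and 1.46 FPKM for LOC113105207, were at or above those of only 9.75% and 12.1% of the tested genes. The next engrailed gene below the minimum had a mean of 0.0632 FPKM. In bulk skin, fewer expressing cells and less RNA per cell cannot be told apart.

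Libraries that share a number deviated together across genes, so the difference was also read within each number. For LOC113044568 the greenish grey level was 8.49, 48.3 and 15.1 times the golden level at numbers 1, 2 and 3. For LOC113105207 it was 10.4, 19.0 and 16.0 times. As the groups did not overlap, any pairing of the libraries gives the same direction, and only the size of the ratio could vary. Number 1 gave the smallest and number 2 the largest ratio for both genes. When both number 1 libraries were left out, the log2 fold changes were -4.59 and -4.04 for LOC113044568 and LOC113105207.

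The levels of the pair of genes were close to each other within most libraries. The FPKM ratio of LOC113105207 to LOC113044568 was 1.28, 2.16 and 1.01 in golden libraries 1 to 3, where the second value rests on 7 counts of LOC113044568. In greenish grey libraries 1 to 3 it was 1.56, 0.850 and 1.07. Neither gene was the higher in all libraries, and their order in greenish grey skin turned between libraries 1 and 2. Carp genomes hold duplicated gene copies, and how reads matching both copies were counted is not given in the sources used here, so the division between them is uncertain. Counted together, the 3 engrailed-1 genes had 47, 32 and 54 counts in golden and 449, 952 and 815 counts in greenish grey libraries, or 0.894, 0.564 and 0.799 against 8.72, 15.0 and 12.4 CPM, the count scaled to library size alone.

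The third engrailed-1 gene, LOC113109075 (engrailed-1a-like, RefSeq symbol en1a, chromosome 9, 32642680 to 32648370, minus strand), had no count in any golden library and 6, 53 and 0 counts in greenish grey libraries 1 to 3. Nearly all of its reads thus came from greenish grey library 2, and its level there was 0.179 FPKM. A long non-coding RNA row, LOC113109076, spans it on the other strand and had no count in any library. For the golden sum of 0 counts of LOC113109075 the 95% Poisson interval reaches 3.69 counts. A floor set at 3 counts in a library is 0.0444 to 0.0583 CPM at the depth of these libraries.

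The 5 engrailed-2 genes were at or near 0 in skin. LOC113051670 (engrailed-2a-like, chromosome 32) had 0, 26 and 21 counts in golden and 16, 13 and 0 counts in greenish grey libraries 1 to 3, so the groups overlapped. LOC113106150 (engrailed-2a, chromosome 7) and LOC113117697 (engrailed-2b-like, chromosome 2) had 4 counts each, all in greenish grey library 3. LOC113045575 (engrailed-2b, chromosome 27) and LOC113092623 (engrailed-2b, not placed on a chromosome) had no count in any library. Summed over these genes, engrailed-2 had 0, 26 and 21 counts in golden and 16, 13 and 8 counts in greenish grey libraries, and at this depth no difference between the colours could be seen.

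**Figure D2:**
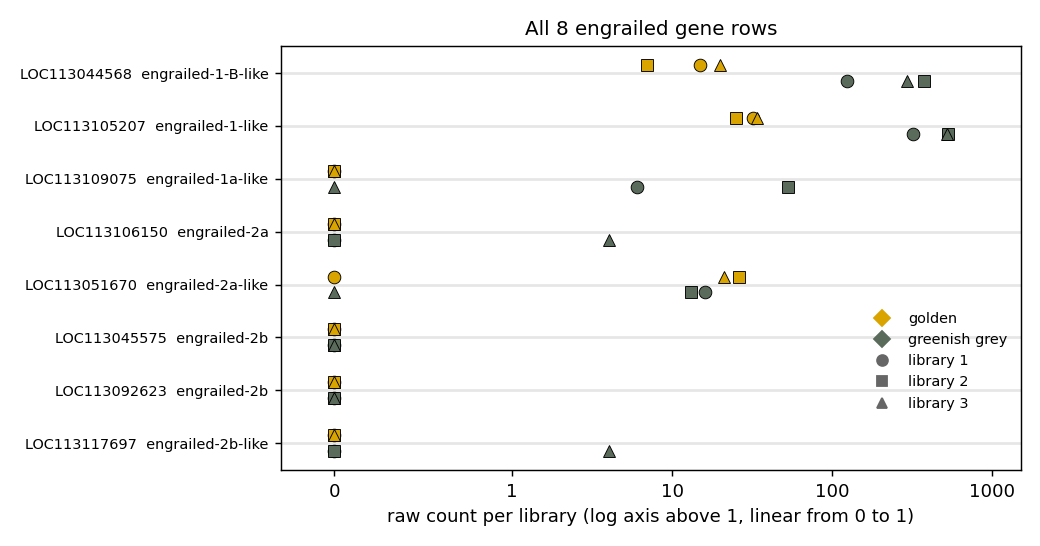
Raw counts of all 8 engrailed genes in the 6 libraries (axis linear from 0 to 1 and logarithmic above), golden libraries above and greenish grey libraries below each line. LOC113044568 and LOC113105207 hold most of the reads, with 7 to 34 counts in golden and 123 to 527 counts in greenish grey libraries, and the other genes stay at or below 53 counts.

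To place engrailed beside genes of patterning, of hedgehog signalling and of its partner proteins, 4 lists were counted in the same fit. The lists were chosen with earlier results of these data known. The first held genes that pattern the dorsal and ventral sides of ectoderm and skin: Wnt7a, Lmx1b, the transcription factors Zic1, Zic4 and Tbx15, agouti-signaling protein (asip), and bone morphogenetic proteins (BMPs) with their type 1 receptors. Of its 53 rows, 45 had a count and 21 were tested, of which 12 had lower and 9 had higher fitted levels in golden skin. Of these, 1 was called lower and 2 were called higher in golden skin, where 1.51% and 1.26% of all tested genes were. The median log2 fold change was -0.13 against 0.031 over all tested genes. With the library number as a block 5 members were called, where 1335 of all tested genes (5.05%) were called in either direction. None passed the adjustment over all genes in edgeR.

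A pair of the called members were asip genes, which encode a secreted antagonist of the melanocortin receptor that is expressed in ventral skin in mouse and zebrafish. The copy LOC113046021 (chromosome 27, 25381313 to 25384042) had 0, 0.164 and 0.692 FPKM in golden and 4.50, 2.11 and 3.84 FPKM in greenish grey libraries 1 to 3. The groups did not overlap and golden was lower, with a log2 fold change of -3.67 (SE 1.22, edgeR unadjusted p = 0.0214, adjusted p = 0.9998). Without golden library 2 the unadjusted p of this copy in edgeR was 0.0677 and the call was lost.

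The copy LOC113050259 (chromosome 31, 4330826 to 4334765) ran the other way, with 2.93, 1.37 and 4.05 FPKM in golden and 0, 0.0479 and 0 FPKM in greenish grey libraries 1 to 3. Its greenish grey libraries held 8 counts in all, so the fitted log2 fold change of 7.41 (SE 1.30) depends on the prior count of the fit. The edgeR unadjusted p was 0.000944 and the adjusted p was 0.924, while the adjusted p from DESeq2 was 5.93e-08. Without greenish grey library 2, which held all 8 of those counts, the fitted value was 11.73, and limma gave 1.83 with a pseudocount of 1 FPKM and 4.54 with 0.1 FPKM. The third asip copy tested, LOC113038505, was not called and had 1.39, 1.11 and 0.536 FPKM in golden and 11.1, 1.94 and 2.18 FPKM in greenish grey libraries 1 to 3, without overlap, with a log2 fold change of -2.20 (SE 0.93). The 2 called asip copies thus differed in direction, and 2 of the 3 tested copies had lower fitted levels in golden skin.

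The third called member was a gene for BMP2, a secreted growth factor, LOC113061888 (chromosome 43, 21501825 to 21509413). It measured 1.34, 2.26 and 1.22 FPKM in golden and 0.584, 0.871 and 0.494 FPKM in greenish grey libraries 1 to 3. Golden was higher without overlap, with a log2 fold change of 1.46 (SE 0.43, edgeR unadjusted p = 0.0122). The gene was no longer called when golden library 2 (edgeR unadjusted p = 0.0569) or both number 1 libraries (edgeR unadjusted p = 0.0656) were dropped. Nor was it called in limma with a pseudocount of 1 FPKM, where the log2 fold change was 0.65, under 2-fold. The members that the block added were Tbx15 (LOC113108532, log2 fold change 1.22, edgeR unadjusted p = 0.0492), a transcription factor that in the mouse sets the border of dorsal and ventral coat colour, and the third asip copy (LOC113038505, log2 fold change -1.80, edgeR unadjusted p = 0.00772). This Tbx15 gene had 21.6, 2.31 and 10.5 FPKM in golden and 4.95, 2.70 and 4.31 FPKM in greenish grey libraries 1 to 3. Its groups overlapped, and golden was the lower at number 2. The other tested Tbx15 genes, LOC113053407 and LOC113108551, overlapped too and were not called with the block.

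The genes that engrailed-1 is known to be set against in the mouse limb, Wnt7a and its target Lmx1b, were looked at by name after their values were seen, and none was called. Of 4 Wnt7a genes, only LOC113111110 was tested, with 0.387, 2.61 and 6.79 FPKM in golden and 0.854, 2.45 and 8.61 FPKM in greenish grey libraries 1 to 3. These values overlapped and rose from number 1 to number 3 in both colours, and the log2 fold change was -0.24 (SE 1.003). In ratio the colours lay furthest apart at number 1, with 0.387 FPKM in golden and 0.854 FPKM in greenish grey skin. No row bore the listed name of Lmx1b. Among 9 rows named LIM/homeobox protein LMX-1.2, the one tested, LOC113096353 (RefSeq symbol lmx1bb), had 0.276, 1.35 and 2.31 FPKM in golden and 0.882, 2.59 and 2.32 FPKM in greenish grey libraries, with a log2 fold change of -0.51 (SE 0.65, edgeR unadjusted p = 0.459). The 4 tested genes for Zic1 and Zic4, which give the dorsal trunk its identity in medaka, were not called either.

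The list of the midbrain-hindbrain border (Pax2, Pax5, Pax8, Wnt1, Fgf8, Otx2 and Gbx2) had 21 rows, of which 14 had no count and 0 were tested. Its highest level in any library was 0.861 FPKM, and its highest count was 173, of Wnt-1 (LOC113070546) in greenish grey library 1. None of these companions of engrailed in the brain therefore reached the expression minimum in skin, nor did an engrailed-2 gene.

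Hedgehog signalling, upstream of engrailed in zebrafish muscle pioneers, had 33 rows, of which 30 had a count but only 2 were tested. Neither was called. With 1.51% of all tested genes called lower and 1.26% higher in golden skin, 0 calls among 2 genes cannot be told from that share. Smoothened, the signal transducer of the pathway (LOC113060624, chromosome 4), had 1.05 ± 0.185 FPKM in golden and 1.74 ± 0.213 FPKM in greenish grey skin (SD, n = 3 each), without overlap. Its log2 fold change was -0.60 (SE 0.30, edgeR unadjusted p = 0.0874), and the unadjusted p was 0.0391 in edgeR with the block. The transcription factor gene gli2 (LOC113108178, chromosome 9) had a log2 fold change of -0.18 (SE 0.41, edgeR unadjusted p = 0.678).

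The partner proteins of engrailed are the Pbx homeodomain cofactors, with which it binds DNA, and the TLE (Groucho) corepressors, through which it represses. Their list was well expressed, with 25 of 26 rows having a count and 17 tested. Of these, 8 had lower and 9 had higher fitted levels in golden skin, and 0 were called. Over all tested genes 1.51% were called lower and 1.26% higher, so 0 calls among 17 genes cannot be told from that share. The median log2 fold change was 0.046 against 0.031 over all tested genes. The lowest p belonged to a pair of tle4 rows on chromosome 2. LOC113113994 had 12.9 ± 4.92 FPKM in golden and 9.80 ± 1.11 FPKM in greenish grey skin (SD, n = 3 each), with a log2 fold change of 0.63 (SE 0.45, edgeR unadjusted p = 0.204), and LOC113112728, annotated as a pseudogene, had one of 0.48 (SE 0.42, unadjusted p = 0.295).

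**Figure D3:**
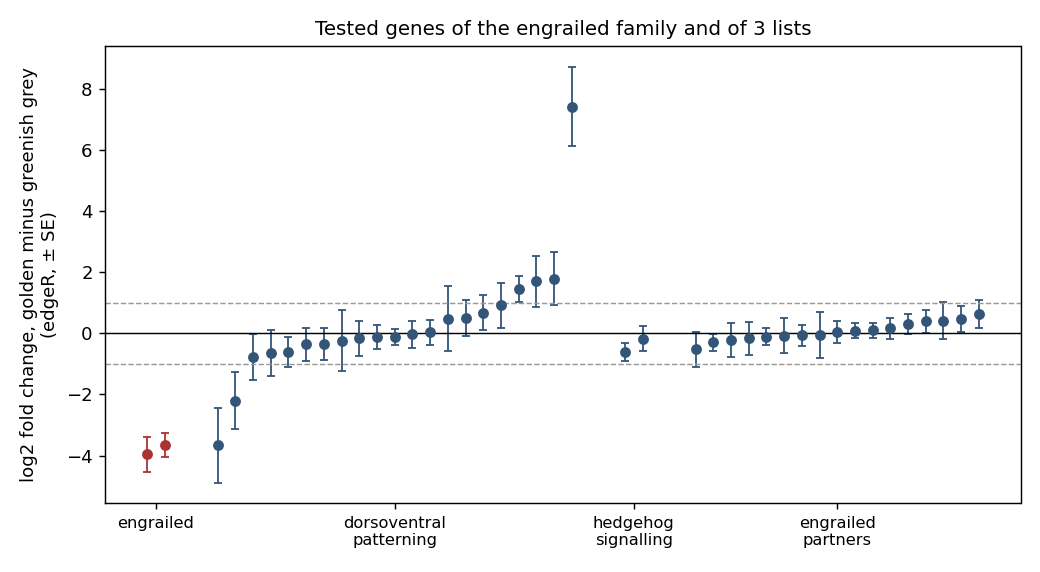
Log2 fold change of golden minus greenish grey (edgeR, bars ± SE) for each tested engrailed gene and each tested member of 3 lists, sorted within a list, with dashed lines at 2-fold. The engrailed genes lie at -3.96 and -3.65, the 17 partner genes stay within 2-fold, and the dorsoventral list runs from -3.67 to 7.41, both asip genes.

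To find genes whose pattern was most like engrailed, the Pearson correlation of log2(FPKM + 1) over the 6 libraries was computed for every tested gene. The libraries form 2 colours, so a gene with a steady difference between the colours scores highly, and the correlations and the differences of the genes below are descriptions without a test. For LOC113044568 the leading genes were an RNA-binding protein gene (RBMS2-like, LOC113101888, r = 0.996), cadherin-5 (LOC113106188, r = 0.995), the adhesion protein of endothelial cell junctions, and coagulation factor X (LOC113087161, r = 0.992), a protease of blood clotting. Cadherin-5 had 0.777, 0.580 and 0.905 FPKM in golden and 1.87, 3.29 and 2.65 FPKM in greenish grey libraries 1 to 3. Coagulation factor X had 0.346, 0.0572 and 0.192 FPKM in golden and 1.12, 2.57 and 2.28 FPKM in greenish grey libraries. RBMS2-like had 1.93, 1.57 and 1.84 FPKM in golden and 3.01, 4.50 and 3.83 FPKM in greenish grey libraries. All 3 genes, picked for this likeness, had their lowest value in golden library 2 and their highest in greenish grey library 2, as LOC113044568 did. In golden library 2 coagulation factor X had only 8 counts and LOC113044568 only 7.

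For LOC113105207 the leading genes were thrombospondin-1 (LOC113117769, r = 0.997), a matrix glycoprotein that restrains blood vessel growth, ras-interacting protein 1 (LOC113059950, r = 0.996), which is needed for vessel lumen formation in the mouse, and an uncharacterized gene (LOC113114081, r = 0.995). Thrombospondin-1 had 58.6 ± 2.16 FPKM in golden and 140.6 ± 5.38 FPKM in greenish grey skin (SD, n = 3 each). Ras-interacting protein 1 had 1.88 ± 0.0706 and 3.87 ± 0.0935 FPKM, and LOC113114081 had 0.419 ± 0.0642 and 1.66 ± 0.0897 FPKM (SD, n = 3 each). Their log2 fold changes were -1.10 (SE 0.36), -0.87 (SE 0.28) and -1.79 (SE 0.37), in the order given, all smaller in size than those of the engrailed genes. The engrailed pair correlated with each other at r = 0.978, rank 17 for LOC113044568 and rank 29 for LOC113105207.

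**Figure D4:**
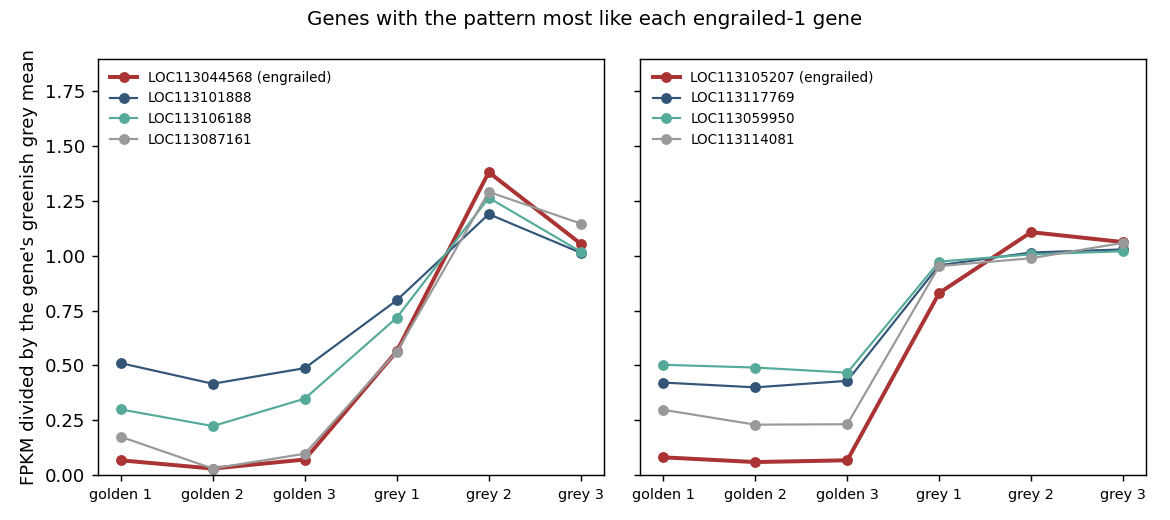
FPKM of each engrailed-1 gene (thick line) and of the 3 genes with the most similar pattern, each divided by its own greenish grey mean, in the 6 libraries; lines only join the values of 1 gene. Left, LOC113044568 with greenish grey library 2 as its peak; right, LOC113105207, where the 3 other genes keep more of their greenish grey mean in golden skin than engrailed-1 does.

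None of the tested genes next to engrailed-1 on the chromosome was called. Both expressed engrailed-1 genes have the same neighbours on one side, a gene for arginine and glutamate-rich protein 1 (arglu1, which takes part in transcription and splicing) and a gene for ephrin-B2, a membrane-bound guidance ligand. The arglu1 gene LOC113044569 starts 5955 bp from LOC113044568 and had 23.5 to 37.1 FPKM, with a log2 fold change of 0.065 (SE 0.36). The arglu1 gene LOC113105173 lies 5569 bp from LOC113105207, with a log2 fold change of 0.051 (SE 0.22). The ephrin-B2 genes, 13051 bp and 12202 bp away, were under 1.1 FPKM in every library and were not tested. The first, LOC113044570, had 0.416, 0.257 and 0.261 FPKM in golden and 0.756, 0.321 and 0.470 FPKM in greenish grey libraries 1 to 3. The second, LOC113105163, had 0.528, 0.716 and 0.358 against 1.03, 1.09 and 0.603 FPKM. Both were lower in golden skin within each library number, but the ranges of the colours overlapped. Taking the 3 nearest genes on either side of each engrailed-1 gene, 6 were tested and 0 were called. Over all tested genes 1.51% were called lower and 1.26% higher, so 0 calls among 6 genes cannot be told from that share.

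Some lists of cell type markers, read as a percent of the counts of a library, moved with colour. These are shares of RNA, and whether cell numbers differed was not tested. Melanophore genes took 0.00169% to 0.00232% of the counts in golden and 0.00725% to 0.0198% in greenish grey libraries, without overlap, and of 15 rows 10 were tested, 10 were lower and 9 were called lower in golden skin. Over all tested genes 1.51% were called lower in golden skin. One row named PMEL was at 0. Endothelium genes, among them the cadherin-5 gene above, took 0.00844% to 0.0134% in golden and 0.0150% to 0.0170% in greenish grey libraries, again without overlap. Of 11 rows 8 were tested, 8 were lower and 1 was called lower in golden skin, where 1.51% of all tested genes were. The called gene was that same cadherin-5 gene, already named for its correlation with engrailed-1. One von Willebrand factor row was at 0. Dermal fibroblast genes took 0.124% to 0.340% in golden and 0.192% to 0.898% in greenish grey libraries. Of 20 tested genes 18 were lower in golden skin, and 1 was called lower, beside 1.51% of all tested genes. The fibroblast ranges overlapped, but within each library number the golden share was the lower, in 3 of 3 pairs.

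The other lists overlapped between the colours and are given as the range in golden and then in greenish grey libraries. Epidermis genes, which mark the tissue named in the labels, took 0.261% to 1.75% and 0.474% to 1.26%. Of 18 tested epidermis genes 11 were lower and 1 was called lower in golden skin, beside 1.51% of all tested genes. Their median log2 fold change was -0.49. Skeletal muscle genes took 2.96% to 11.96% and 1.35% to 7.85%, more than any other list in every library. Of 67 tested muscle genes 5 were lower, 6 were called higher and 1 was called lower in golden skin. Over all tested genes 1.26% were called higher and 1.51% lower. The median log2 fold change of the muscle genes was 1.21, against 0.031 over all tested genes. Nerve and Schwann cell genes took 0.0374% to 0.0873% and 0.0406% to 0.0536%, and erythrocyte genes 0.191% to 1.74% and 0.109% to 2.26%. Of 11 tested nerve and Schwann cell genes 5 were lower in golden skin. Of 9 tested erythrocyte genes 1 was lower, and 0 of either list were called. The part of melanophores, endothelium or any other cell type in the engrailed difference was not tested.

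**Figure D5:**
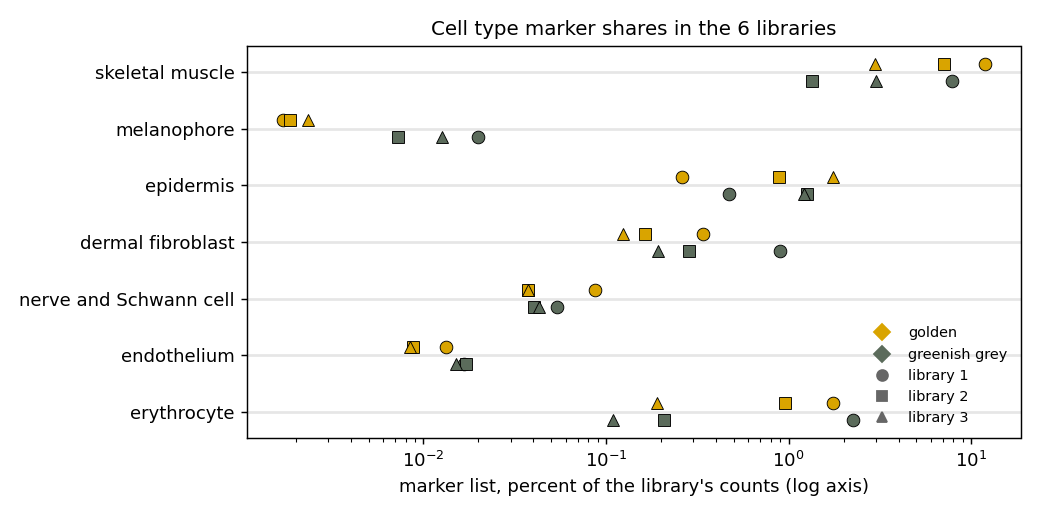
Share of each library's counts (percent, logarithmic axis) on 7 lists of cell type markers, golden libraries above and greenish grey libraries below each line. Melanophore and endothelium shares are lower in all golden libraries than in any greenish grey library, and the ranges of the other lists overlap, dermal fibroblast being lower in golden skin within 3 of 3 library numbers.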

How the data were processed

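Messenger RNA libraries were prepared with a SMARTER mRNA-seq kit per the labels, and groups and library numbers were taken from the titles. The deposited table holds raw counts, not normalized, and FPKM values that the authors scaled by gene length and library size; 0.0001 FPKM stood in it where the count was 0 and was set to 0. Aligner, counting tool, use of strand and treatment of reads shared by gene copies are not given in the sources used here, and the submitters' processing notes name mouse genome builds only. All 83088 rows had the same start as in the RefSeq gene table of ASM336829v1, which gave symbols and chromosomes.

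The 26421 genes averaging 1 FPKM or more were tested with edgeR 4.0.16 (R 4.3.3; two-sided quasi-likelihood test with TMM scaling, library size being the sum of all rows, and no further term), with Benjamini-Hochberg adjustment. DESeq2 1.42.0, limma 3.58.1 on log2(FPKM + 1) and log2(FPKM + 0.1), RLE scaling, no FPKM filter, a block on library number and leaving out each library were alternatives. Leaving out both number 1 libraries was added after seeing the data. The script was tested on simulated data. Total counts per library, 51493103 to 67595616, limit precision for counting error only, as the reads carry no molecular identifiers.

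The engrailed members and all lists were chosen with earlier results of these data known. A gene entered a list by the start of its product name or by its symbol; proteins that merely carry von Willebrand factor domains were left out. Named from the lists were members past 2-fold at an unadjusted p under 0.05, in a list with none the 2 tested members of lowest p, and for each engrailed gene the 3 genes of highest correlation. Golden and greenish grey libraries of the same number deviated together from their group means (r = 0.745, 0.262 and 0.738 over tested genes for numbers 1, 2 and 3; at most 0.0709 between different numbers). The pairing comes from these values and the shared numbers, as the labels do not say what a number stands for.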

Additional observations from a re-analysis of the deposited data

How the results depend on the processing

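Under all 13 alternatives both engrailed genes stayed lower in golden skin. The 2 tested hedgehog genes and the 17 tested partner genes stayed at 0 calls. List calls were counted among these tested members also without the FPKM filter, so members below the expression minimum were not judged. For LOC113044568 (log2 fold change -3.96) limma with a pseudocount of 1 FPKM gave -1.60, which a pseudocount of that size shrinks for genes this low, leaving out both number 1 libraries gave -4.59, and the settings with libraries left out ranged from -4.59 to -3.67. For LOC113105207 (-3.65) limma gave -1.65 with 1 FPKM and -3.30 with 0.1 FPKM, leaving out both number 1 libraries gave -4.04, and the left-out range was -4.04 to -3.50.

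Over all genes, the count at an adjusted p under 0.05 was 0 in edgeR, 205 in DESeq2 and 2 in limma with 0.1 FPKM. The count of genes that differed more than 2-fold with an unadjusted p under 0.05 was 731, against 1642 without the FPKM filter and 494 to 1422 with libraries left out (1116 without golden library 1, 1422 without golden library 3). Of these, 399 were lower in golden skin, against 874 without the filter, 645 in limma with 0.1 FPKM and 295 to 860 with libraries left out. Among its 21 tested members the dorsoventral list had 3 calls, 6 in DESeq2, 5 without the filter and 2 to 5 with libraries left out (5 without golden library 1). Unlike the counts over all genes, the value without the filter leaves out list members below the expression minimum. The cause of these shifts was not tested.

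With the replicate block, 1 gene passed the adjusted threshold, 1335 genes reached the 2-fold threshold, 695 of them lower in golden skin, and the dorsoventral list had 5 calls. The log2 fold changes of the engrailed genes were -3.98 and -3.71, and beside the gain of Tbx15 (LOC113108532) and asip (LOC113038505) in the dorsoventral list the block changed no call of a list member named here. With 3 libraries a colour and 7 to 34 counts per golden library, the golden level of either engrailed gene cannot be given more closely than its counting interval.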
